A study of Mus musculus with 6 samples.

Results

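The genes described here encode the machinery that licenses replication origins and copies DNA in S phase. The set holds 38 named mouse genes, chosen by symbol, and each was read from the probe set annotated to that symbol alone with the highest mean level over the 6 arrays. Of the 38 genes, 36 have such a probe set, among 22180 named genes in the series. Rfc4 and Ccne2 share their probe sets with a neighbouring gene and are named only. All 36 measured genes passed the filter on low levels and belong to the 15526 genes tested.

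The leukemias came from mice of 2 genotypes, Mx1-Cre, Cbfb+/56M (the control) and Chd7f/f, Mx1-Cre, Cbfb+/56M (Chd7f/f), with 3 independent samples each. Cbfb+/56M mice can be induced to express Cbfb-MYH11, the fusion product of acute myeloid leukemia with inv(16). Mx1-Cre supplies the recombinase, which pIpC switches on by way of interferon, and the Chd7f/f mice also carry floxed alleles of the remodelling ATPase Chd7. Animals of both genotypes received pIpC and the mutagen ENU, so induction of Cre, the fusion allele and mutagenesis were shared. Mx1-Cre is active in blood cells and in other tissues that respond to interferon, and ENU adds different mutations to every leukemia. Cells carrying the receptor c-Kit were sorted from the spleens of end-stage animals, and their RNA was hybridised to 1 whole-transcript array per sample. Age is not in the labels used here. The series asks how loss of Chd7 changes expression in this leukemia.

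Origins are licensed in G1, when the origin recognition complex, Cdc6 and Cdt1 load the ring of Mcm2 to Mcm7 onto them. At S phase entry, cyclin E with Cdk2 helps to drive the assembly of the active helicase, in which Cdc45 and the GINS complex join the ring. Polymerases, the Pcna clamp and the ligase Lig1 then make and join the new strands. Most of these genes are classical targets of the E2F transcription factors, and their mRNAs are high in dividing cells and low in resting ones. Levels below are RMA values on the log2 scale. A difference is the Chd7f/f mean minus the control mean, also in log2 units, and levels of different genes are not compared because each probe set has its own response.

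Some facts of the arrays bear on what follows. Chd7 was at 6.17, 7.54 and 5.32 in control and at 5.48, 6.50 and 5.91 in Chd7f/f replicates 1 to 3, a difference of -0.38 (limma, adjusted p = 0.9998) and of -0.14 without Chd7f/f replicate 1, and the place of its probes relative to the floxed part is not given, which leaves the deletion unchecked by this level. Kit, the gene behind the sort, lay between 11.7 and 12.5 on all 6 arrays. Xist was at 10.1 in control replicate 2 and at 3.88 or below on the other arrays. Chd7f/f replicate 1 stands apart from the other 5 arrays in the replication genes, and counts and medians between genotypes are therefore given with and without it.

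The replication genes did not separate the genotypes, and they were low in 1 leukemia. Of the 36 members, 34 had their lowest level in Chd7f/f replicate 1, where 27.7% of all genes tested had theirs, and 28 had their highest level in control replicate 1, where 24.4% of all genes had theirs. The mean of the members, each taken relative to its own mean over the 6 arrays, was -1.32 in Chd7f/f replicate 1. It was 0.56, -0.13 and 0.31 in control replicates 1 to 3, and 0.35 and 0.25 in Chd7f/f replicates 2 and 3. The last pair therefore lay inside the range of the controls, and 31 of the 36 members had both values there, as did 36.6% of all genes tested. Within the controls, replicate 2, the sample with high Xist, was the lowest for 32 members, against 35.3% of all genes tested. Any part of sex in this was not tested.

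**Figure D1:**
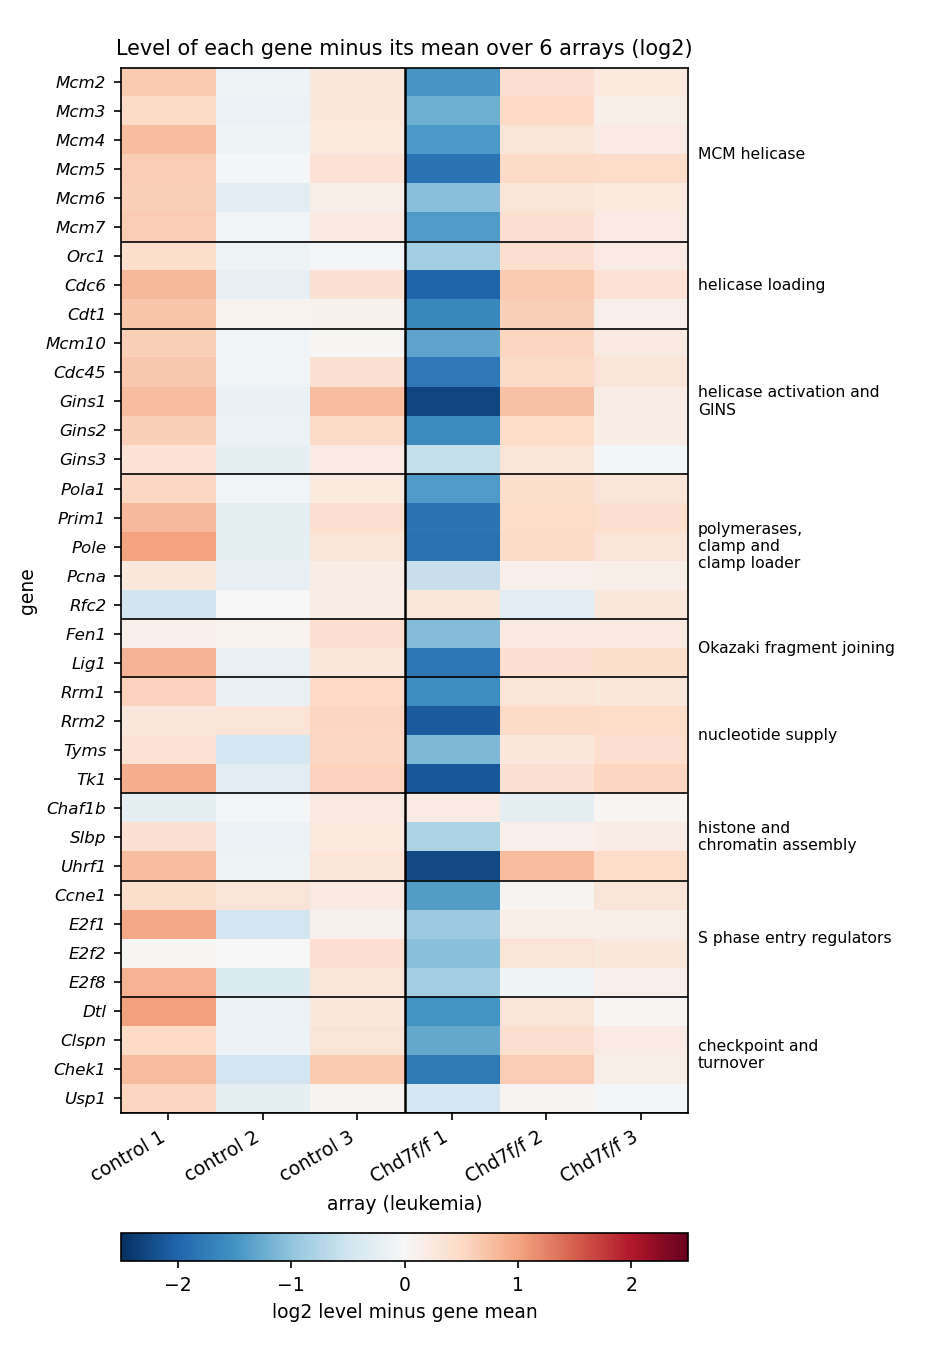
Level of each of the 36 replication genes (rows, grouped by role) on each array (columns), as log2 level minus the gene's mean over the 6 arrays. The column of Chd7f/f replicate 1 is low for 34 genes, with Rfc2 and Chaf1b as the exceptions, and control replicate 1 is the highest column for 28.

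Members varied more between leukemias than most genes tested did. The genes tested had means from 4.13 up and were not matched to the members for level. The range from the lowest to the highest array had a median of 1.99 over members and 0.57 over all genes tested, and 93.8% of all genes had a range below the members' median. It ran from 0.44 for Chaf1b to 3.08 for Gins1. Without Chd7f/f replicate 1 the median range was 0.75 for members and 0.46 for all genes. In Chd7f/f replicate 1, 30 of the 36 members were at least 1 log2 unit below the mean of the other 5 arrays, against 4.39% of all genes tested. Because RNA was taken from a cell population, fewer dividing cells and less of each mRNA per cell cannot be told apart.

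**Figure D2:**
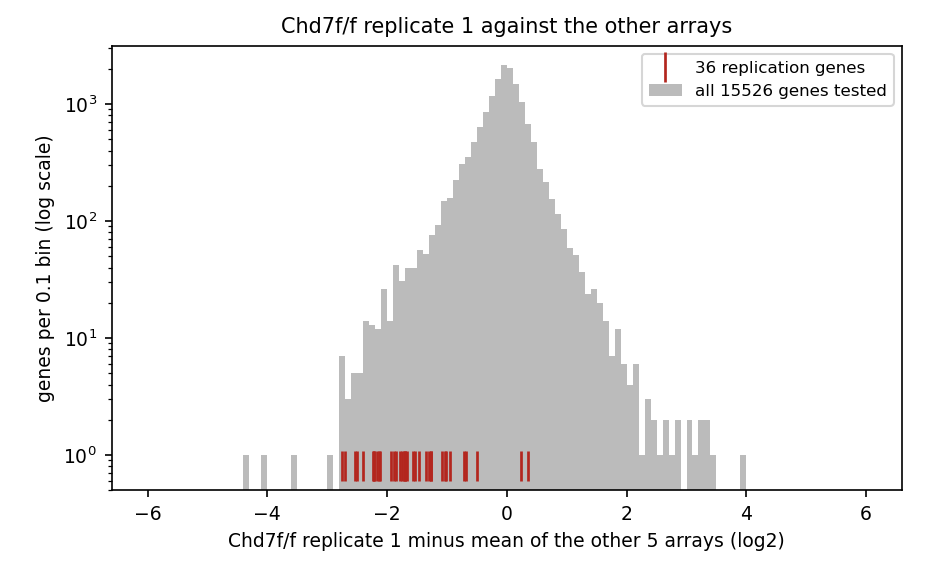
Level in Chd7f/f replicate 1 minus the mean of the other 5 arrays (log2, x axis) for all 15526 genes tested (grey bars, genes per bin on a log scale) and for the 36 replication genes (red marks). The red marks have a median of -1.70, and the median of all genes is -0.042.

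The subunits of the replicative helicase had like profiles over the arrays. Mcm2 was at 10.95, 10.19 and 10.58 in control replicates 1 to 3 and at 8.85, 10.70 and 10.56 in Chd7f/f replicates 1 to 3. Mcm5 was at 11.06, 10.41 and 10.80 in the controls and at 8.60, 10.92 and 10.90 in Chd7f/f leukemias. Mcm4 was at 10.77, 9.89 and 10.23, and at 8.56, 10.31 and 10.19 in the same order. In each case Chd7f/f replicate 1 lay below all other leukemias, while Chd7f/f replicates 2 and 3 sat among the controls. Mcm3, Mcm6 and Mcm7 were at 9.27, 9.45 and 8.78 in Chd7f/f replicate 1 and no lower than 10.35, 10.25 and 10.13 elsewhere. The mean over the 6 subunits, relative to each gene's own mean, was -1.40 in Chd7f/f replicate 1 and from -0.12 to 0.62 elsewhere. On those 5 arrays the subunits were near each other, with 0.19 to 0.31 between the lowest and the highest subunit, and were 0.80 apart in Chd7f/f replicate 1, where Mcm5 was the lowest and Mcm6 the highest. Against the mean of the other 5 arrays, Mcm5 was 4.65-fold lower in that leukemia and Mcm6 2.40-fold lower.

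Among the loading factors, which place the ring on origins, Cdc6 had the larger range. It was at 9.20, 8.15 and 8.74 in the controls and at 6.36, 9.02 and 8.71 in Chd7f/f leukemias. Cdt1, the other loader, was at 9.78, 9.17 and 9.20 and then at 7.47, 9.68 and 9.22. Orc1, the regulated subunit of the origin recognition complex and the one member of that complex in the set, was at 6.66, 6.09 and 6.18 and then at 5.36, 6.62 and 6.44. All 3 were lowest in Chd7f/f replicate 1, and for Cdc6 that level was 5.31-fold lower than the mean of the other 5 arrays, against 3.84-fold for Cdt1 and 2.05-fold for Orc1. The 5.36 of Orc1 is not far above that array's median over all probe sets, 4.82. Without detection calls, its fold may be understated. Of the 5 other origin recognition subunits, 4 were not lowest in Chd7f/f replicate 1. Orc2 was at 8.53 there, inside its range of 8.22 to 8.73 on the other arrays, while Orc6, named after its values were seen, was the exception at 8.21, with 8.69 to 9.40 elsewhere.

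The factors that turn the loaded ring into a moving helicase included the member with the widest measured range. Gins1, a subunit of GINS, was at 7.84, 6.88 and 7.81 in the controls and at 4.75, 7.79 and 7.23 in Chd7f/f leukemias. Its 4.75 in Chd7f/f replicate 1 lies below that array's median over all probe sets, 4.82, and the table carries no detection calls, so this level was not shown to be above background and its range may be understated. Gins2 was 3.70-fold lower there and Gins3 1.64-fold lower, so these subunits differed in how far they were down in that leukemia. Cdc45, the partner of GINS in the active helicase, was at 5.45 in Chd7f/f replicate 1 and between 7.15 and 7.91 elsewhere. Mcm10, an activator of the helicase, was at 6.44 against 7.68 to 8.35. Gins4, the remaining subunit, is not a member and stood at 8.97 in Chd7f/f replicate 1, with 9.21 to 9.68 elsewhere.

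Polymerase and primase genes had the profile of the helicase, with a smaller gap for the clamp. Pole, the catalytic subunit of the leading strand polymerase, was at 9.73, 8.47 and 9.03 in the controls and at 6.86, 9.21 and 9.05 in Chd7f/f leukemias. Prim1, the catalytic primase subunit, was at 6.84 in Chd7f/f replicate 1 and between 8.45 and 9.50 elsewhere, and Pola1, the polymerase subunit that extends the primer, at 7.61 against 8.95 to 9.54. Pcna, the sliding clamp, was at 11.38, 10.91 and 11.29 in the controls and at 10.54, 11.24 and 11.28 in Chd7f/f leukemias, 1.60-fold lower in Chd7f/f replicate 1 than the mean of the others. Rfc2, a subunit of the clamp loader, had another profile, at 9.66, 10.15 and 10.34 and then at 10.44, 9.87 and 10.44, with its lowest level in control replicate 1. Rfc1, Rfc3 and Rfc5, subunits that are not members and were named after their values were seen, did not share it. They were lowest in Chd7f/f replicate 1, at 8.76, 6.24 and 7.94, and no lower than 8.89, 7.04 and 8.65 elsewhere. Of the genes that process and seal Okazaki fragments, the ligase gene Lig1 stood at 6.78 in Chd7f/f replicate 1, with 8.40 to 9.44 elsewhere, and the flap endonuclease gene Fen1 at 6.96 against 8.13 to 8.46.

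Genes of nucleotide supply had the lowest group mean in Chd7f/f replicate 1, -1.72 over 4 genes. Rrm2, the regulated subunit of ribonucleotide reductase, was at 9.36, 9.42 and 9.63 in the controls and at 7.0, 9.56 and 9.54 in Chd7f/f leukemias. Its 5 higher arrays lay within 0.26 of each other, the narrowest spread among the members once that leukemia is set aside. Rrm1, the large subunit, was at 8.98 in Chd7f/f replicate 1 and between 10.36 and 11.10 elsewhere. Tk1, the S phase thymidine kinase, was at 9.81, 8.63 and 9.48 in the controls and at 6.79, 9.28 and 9.43 in Chd7f/f leukemias, and was 5.81-fold lower in Chd7f/f replicate 1 than the mean of the others. Tyms, which makes thymidylate, was at 6.74 there and at 7.43 to 8.38 on the other arrays.

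**Figure D3:**
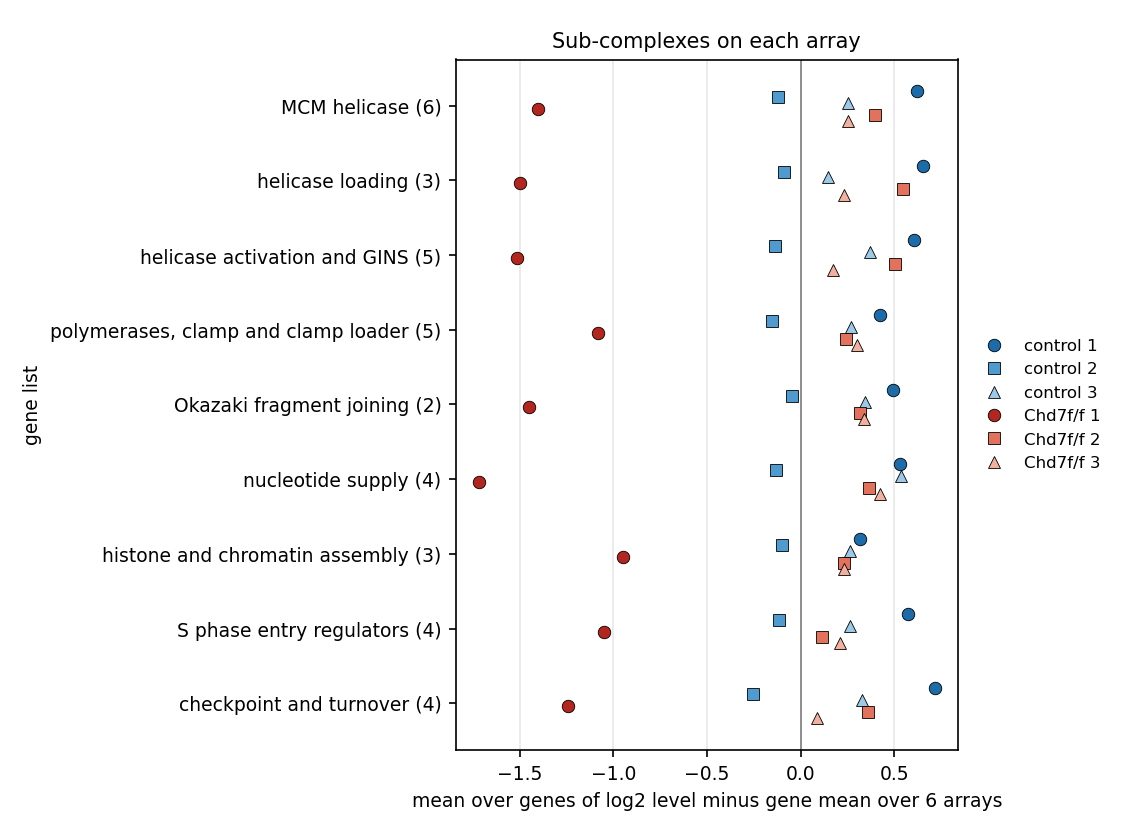
Mean over the genes of each role (number of genes in brackets) of the log2 level minus the gene's own mean, 1 point per array, controls in blue and Chd7f/f in red. Chd7f/f replicate 1 lies between -1.72 and -0.95 in every group, and control replicate 2 is the next lowest array in all 9 groups.

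Histone and chromatin genes were mixed. Uhrf1, which brings the maintenance DNA methyltransferase to newly made DNA, was at 9.64, 8.74 and 9.20 in the controls and at 6.61, 9.65 and 9.32 in Chd7f/f leukemias, 6.50-fold lower in Chd7f/f replicate 1 than the mean of the others. Slbp, which binds the stem-loop of histone mRNA, was at 8.98 there and at 9.63 to 10.17 elsewhere. Chaf1b, a subunit of the histone chaperone CAF-1, was nearly level, at 9.93, 10.11 and 10.36 and then at 10.34, 9.92 and 10.19, while Chaf1a, the other large subunit of the same chaperone and no member, was at 5.79 in Chd7f/f replicate 1 and between 7.08 and 8.14 elsewhere. Chaf1b and Rfc2 are thus the members with no low level in Chd7f/f replicate 1.

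Among the regulators of S phase entry, E2f1 and E2f8 also varied among the controls, and Ccne1 varied little there. Ccne1, a cyclin E gene, was at 7.17, 7.05 and 6.95 in the controls and at 5.34, 6.80 and 7.05 in Chd7f/f leukemias. E2f1, an activating E2F factor, was at 8.56, 7.14 and 7.69 and then at 6.69, 7.72 and 7.72. E2f8, a repressor of the same family, was at 10.45, 9.24 and 9.89 and then at 8.74, 9.49 and 9.72. For E2f1 and E2f8 control replicate 1 was high and control replicate 2 low, so that Chd7f/f replicate 1, relative to the next lowest array, was at -0.45 and -0.50, against -1.46 for Ccne1. E2f2 was at 6.69 in Chd7f/f replicate 1 and between 7.74 and 8.16 elsewhere.

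In the last group, Dtl, the substrate receptor through which Cdt1 is destroyed in S phase, was at 10.34, 9.17 and 9.58 in the controls and at 7.83, 9.65 and 9.34 in Chd7f/f leukemias. Chek1, the replication checkpoint kinase, was at 8.29, 7.01 and 8.15 and then at 5.72, 8.13 and 7.64. Clspn, the adaptor through which Chek1 is activated, was at 6.51 in Chd7f/f replicate 1 and between 7.65 and 8.30 elsewhere. Usp1, which removes ubiquitin from Pcna, had the smallest gap of the 34 members that were lowest in that leukemia, at 9.88 against 10.06 to 10.84, or 1.42-fold below the mean of the others.

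Most members are classical E2F targets, chosen by symbol, so a high share of E2F letters would follow from that choice, not from these arrays. The core letters of E2F sites were searched in the RefSeq promoters of GRCm38.p6, which span 250 bases before and 50 after each annotated start. Of the members, 31 have a promoter in that table. TTTCCCGC or TTTGGCGC, on either strand, was present in the promoters of 10 of these 31 genes (32.3%), against 3.07% of the 12052 tested genes with a promoter and 1.8% of all 27025 genes in the table. Of the further replication genes, a list of the same machinery described below, 18 of the 78 genes with a promoter (23.1%) held one of them. TTTCCCGC was in 4 members (12.9%, against 17.9% of the further replication genes) and TTTGGCGC in 7 (22.6%, against 5.13%), with both in Mcm3. The stretches below show the 7 members whose match lies wholly before the start, read 5′ to 3′ on the strand of the gene, with the matching letters in capitals (GCGGGAAA and GCGCCAAA are the reverse complements).
Mcm6, chr1:128359715-128359845, minus strand: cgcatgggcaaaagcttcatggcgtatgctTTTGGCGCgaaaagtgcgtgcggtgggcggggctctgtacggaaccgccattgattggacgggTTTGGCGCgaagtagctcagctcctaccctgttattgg
Mcm5, chr8:75109330-75109397, plus strand: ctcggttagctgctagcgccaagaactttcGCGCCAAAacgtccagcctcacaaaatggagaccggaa
Mcm7, chr5:138172011-138172078, minus strand: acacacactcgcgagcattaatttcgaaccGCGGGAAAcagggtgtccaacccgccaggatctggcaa
Cdc6, chr11:98907983-98908050, plus strand: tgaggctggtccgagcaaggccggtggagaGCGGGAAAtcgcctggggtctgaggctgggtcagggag
Gins3, chr8:95633488-95633555, plus strand: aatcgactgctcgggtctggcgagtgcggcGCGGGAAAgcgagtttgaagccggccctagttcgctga
Pola1, chrX:93632256-93632323, minus strand: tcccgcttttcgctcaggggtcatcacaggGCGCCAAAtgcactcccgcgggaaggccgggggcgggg
Dtl, chr1:191575545-191575582, minus strand: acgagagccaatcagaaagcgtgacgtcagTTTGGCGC

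The matches begin 8 bases before the start in Dtl, 41 in Gins3, 138 in Cdc6 and Pola1, 149 in Mcm5 and 165 in Mcm7, and Mcm6 has 2 of them, 110 and 47 bases before it. In Mcm3, Cdt1 and E2f2 the matches lie after the start. The CCAAT letters were in 20 of the 31 members (64.5%) and in 41.5% of tested genes, and TTTGAA, letters found in genes of G2 and mitosis, in 6 members (19.4%), 14.6% of tested genes and 20.2% of all genes in the table. A match of letters shows no binding. Relative to the mean of the other 5 arrays, Chd7f/f replicate 1 had a median of -1.70 over the 10 measured members with the E2F letters and of -1.62 over the 20 without them.

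Between genotypes, 34 members were lower in Chd7f/f leukemias and 2, Rfc2 and Chaf1b, higher, with a median of -0.54. Of all genes tested 56.3% were lower, with a median of -0.027. No member passed over all genes tested (limma, adjusted p = 0.9998 for each), and 0% of all genes did. The smallest unadjusted p of a member was 0.181, and 0 of the 36 members were under 0.05, against 1.84% of all genes. No member had its 3 Chd7f/f values clear of the 3 control values, while 6.81% of all genes had no overlap, 4.37% on the lower side. With 3 arrays a genotype, the smallest p of a two-sided exact permutation test is 0.1.

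Within the helicase ring the differences ran from -0.61 for Mcm5 to -0.33 for Mcm6, among the loaders from -0.67 for Cdc6 to -0.17 for Orc1, and among polymerase, primase and clamp genes from -0.70 for Pole to -0.17 for Pcna. Gins1 had the largest difference of the 36, -0.92 (SE 0.80), with 7.51 ± 0.54 over the control arrays and 6.59 ± 1.62 over the Chd7f/f arrays (SD, n = 3 each). Tk1 differed by -0.80 (SE 0.75), Rrm2 by -0.77 (SE 0.69), Dtl by -0.75 (SE 0.54) and Pole by -0.70 (SE 0.68). Ccne1, with the smallest p, averaged 7.06 ± 0.11 over the control arrays and 6.39 ± 0.92 over the Chd7f/f arrays (SD, n = 3 each). Its difference was -0.66 (SE 0.44). Rfc2 was 0.20 higher (SE 0.25) and Chaf1b 0.020 higher (SE 0.17). Without Chd7f/f replicate 1 these differences were 0.00098 for Gins1, 0.053 for Tk1, 0.078 for Rrm2, -0.20 for Dtl, 0.052 for Pole, -0.14 for Ccne1, 0.10 for Rfc2 and -0.076 for Chaf1b. Over all members, 8 were then lower and 28 higher in Chd7f/f leukemias, with a median of 0.066, and 50.3% of all genes were lower. The 8 were Mcm4, Chaf1b, Slbp, Ccne1, E2f1, E2f8, Dtl and Usp1, of which E2f8 was the lowest at -0.26. Orc1 and Chaf1b also changed sign without control replicate 1, to 0.0052 and -0.083, and Chaf1b did so without Chd7f/f replicate 3, to -0.00015, while Orc1 was at 0.22 without Chd7f/f replicate 1. The median over members was -0.36 when control replicate 1 was left out, -0.87 when Chd7f/f replicate 2 was, and -0.13 with array weights.

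**Figure D4:**
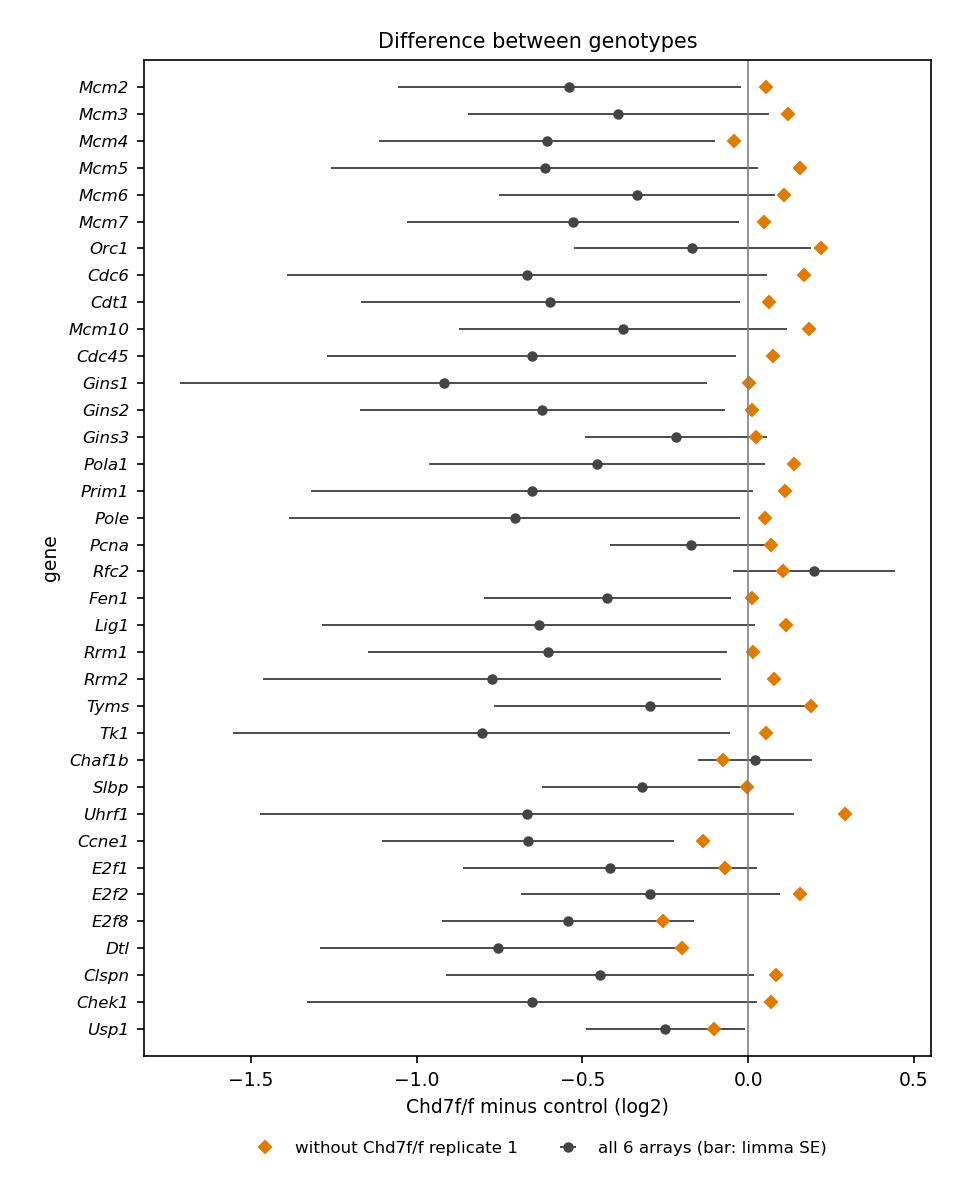
Chd7f/f minus control for each replication gene (log2), over all 6 arrays (dark points, bars are the limma SE) and without Chd7f/f replicate 1 (orange diamonds). Dark points lie below 0 for 34 of 36 genes, and 28 of the diamonds lie above 0.

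Of 97 further replication genes listed by role, 93 were measured and tested. Of these 0 passed (limma, adjusted p = 0.9998 for each, 0 at an unadjusted p under 0.05), 77 were lower and 16 higher in Chd7f/f leukemias, and the median was -0.23. Without Chd7f/f replicate 1, 37 were lower and 56 higher, with a median of 0.023. Chd7f/f replicate 1 was the lowest array for 70 of them. Low ends of these lists were Ticrr at -0.73 and Cdc7 at -0.72, both needed to fire origins, the nuclease gene Exo1 at -0.80, the lagging strand polymerase gene Pold1 at -0.63, the histone chaperone genes Asf1b at -0.62 and Chaf1a at -0.57, the dCTP pyrophosphatase gene Dctpp1 at -0.48 and the CTP synthase gene Ctps at -0.40. The S phase cyclin gene Ccna2 was at -0.47, the checkpoint clamp gene Hus1 at -0.38 and the phosphatase gene Cdc25c at -0.32. Without Chd7f/f replicate 1 these 11 genes lay between -0.16 for Hus1 and 0.38 for Cdc25c. Tfdp2, an E2F partner, differed by -1.32 (SE 0.81) and by -1.47 without Chd7f/f replicate 1. In control replicate 1 it reached 9.01, with values between 5.32 and 6.6 elsewhere, so control replicate 1 is the array apart in this gene. High ends were Samhd1, which degrades nucleotides, at 0.21, the polymerase subunit gene Pold4 at 0.18, the pocket protein gene Rbl2 at 0.17, the clamp unloader gene Atad5 at 0.15, the partner gene of Atr, Atrip, at 0.13 and the checkpoint kinase gene Chek2 at 0.11. Rrm2b and Mcmbp were at 0.05 and 0.04, and Myb, Orc2, Supt16 and Asf1a, the high ends of lists with few higher genes, between -0.13 and -0.01. Without Chd7f/f replicate 1, Samhd1, Pold4, Rbl2 and Rrm2b turned to -0.0090, -0.027, -0.10 and -0.099, and Supt16 to 0.12, while Atad5, Atrip, Chek2 and Mcmbp were at 0.20, 0.21, 0.59 and 0.063. Samhd1, Pold4 and Rbl2 were highest in Chd7f/f replicate 1, at 10.94, 9.40 and 11.22.

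Genes of the later cell cycle were low in the same leukemia. All 17 measured genes of a G2 and mitosis list had their lowest level in Chd7f/f replicate 1, with a list mean of -1.60 there and from -0.05 to 0.57 elsewhere, and Mki67, the Ki-67 proliferation antigen gene, was at 10.22 there and from 11.30 to 11.86 elsewhere. Ccnb2, a mitotic cyclin gene, was at 8.63 and from 9.97 to 10.49 in the same order. The growth arrest list of 12 genes was at 0.04 in Chd7f/f replicate 1 and from -0.15 to 0.12 elsewhere. Within it, the CDK inhibitor gene Cdkn1b was at 9.70 in Chd7f/f replicate 1 and from 8.90 to 9.03 on the other arrays, and was named after its values were seen, while Cdkn1a, another CDK inhibitor gene and a p53 target, was at 9.75 there and at 9.60 to 10.90 elsewhere, and the antiproliferative gene Btg2 was at 8.97 and from 8.80 to 9.45.

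Markers of cell identity also differed in Chd7f/f replicate 1. Kit was at 12.48 and the progenitor antigen gene Cd34 at 9.47 there, against at most 12.12 and 7.64 elsewhere, the transcription factor gene Gata2 was at 12.04 against 11.58 to 11.90, while the granule enzyme gene Mpo, at 8.69, was close to the 8.59 of control replicate 1. The mean of the 13 progenitor markers, relative to each gene's own mean, was 0.60 in Chd7f/f replicate 1 and from -0.31 to 0.08 on the other arrays. The mean level of the 8 measured erythroid markers of 14 listed was 8.97 in Chd7f/f replicate 1, 9.81 and 10.32 in the other Chd7f/f leukemias and 9.46 to 10.68 in the controls. Car1 and Car2 were high on every array, at 11.09 or above, and Tfrc, the transferrin receptor gene, named after its values were seen, ran from 6.36 in Chd7f/f replicate 1 to 11.06 in control replicate 1, the arrays at the low and high ends of the replication genes. The 14 neutrophil markers had mean levels of 4.61 to 5.12 in the controls and 4.78 to 5.72 in Chd7f/f leukemias, the 16 monocyte and macrophage markers 5.62 to 6.62 and 6.15 to 7.18, the 11 measured lymphocyte markers of 13 listed 4.45 to 4.89 and 4.50 to 4.66, and the 6 measured platelet markers of 8 listed 5.77 to 6.11 and 5.38 to 5.70. The 2 brightest genes of each list were the granule genes Lcn2 (6.48 to 9.01) and Ngp (5.16 to 7.21), the macrophage genes C1qb (6.56 to 8.63) and Cd68 (7.05 to 8.46), the lymphocyte genes Nkg7 (6.51 to 7.96) and Cd79a (4.97 to 7.18), and the platelet receptor genes Itga2b (9.05 to 10.34) and Gp9 (6.41 to 10.81). Gp9 was highest in control replicate 1 and at most 7.71 on the rest, and Cd79a was highest in control replicate 2 and at most 5.26 on the rest. None of these 4 lists had its lowest mean among the 6 arrays in Chd7f/f replicate 1. The part of progenitor and erythroid genes in the level of the replication genes was not tested.

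**Figure D5:**
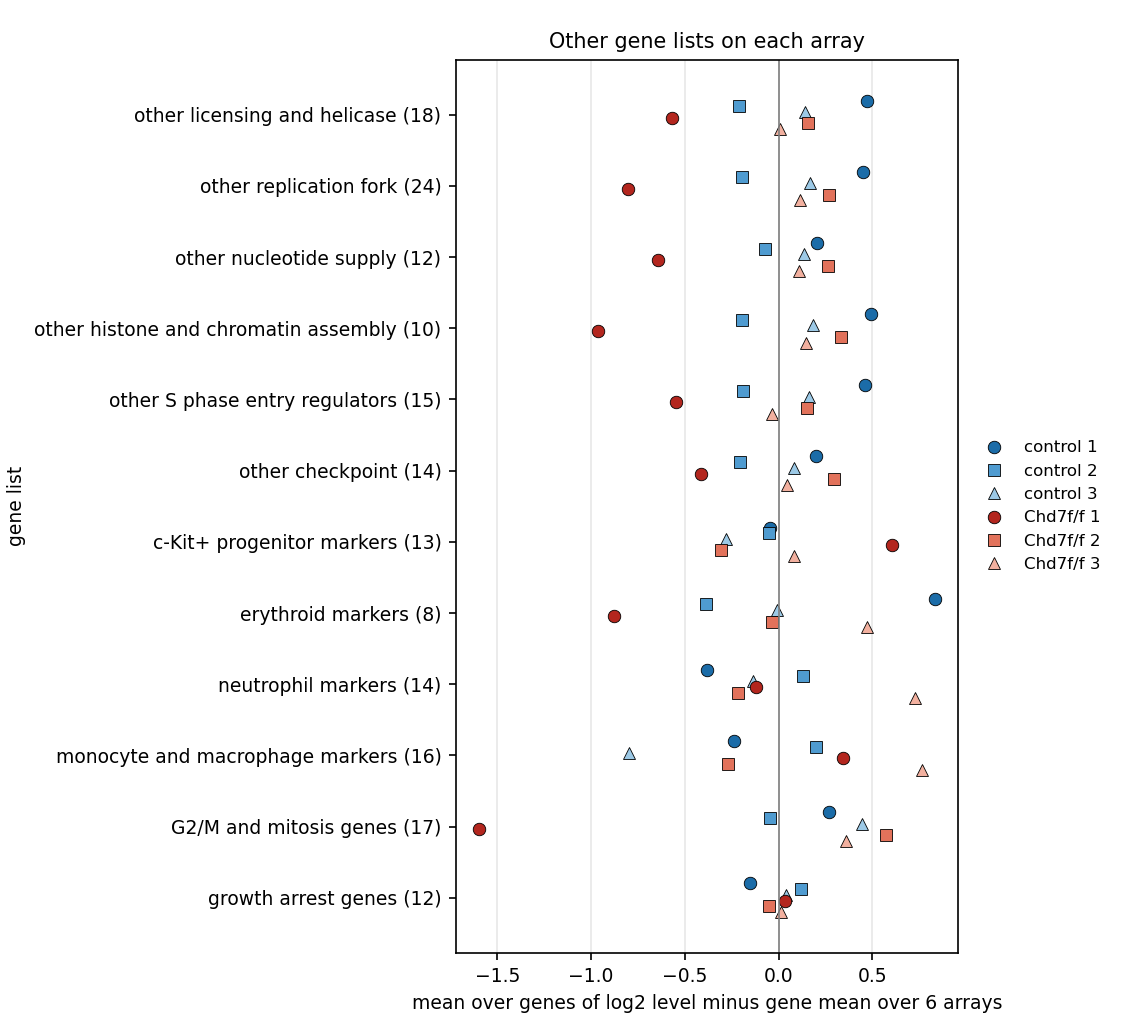
Mean of the log2 level minus the gene's own mean on each array for further replication lists, cell cycle lists and cell type markers (number of measured genes in brackets). Chd7f/f replicate 1 is the lowest array in every further replication list, in the erythroid list and in the G2 and mitosis list, and the highest array in the progenitor list.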

How the data were processed

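RNA of 6 sorted leukemia samples was measured, 1 array each. The authors deposited log2 levels per probe set, made with Affymetrix Expression Console and RMA per the submitters' processing notes (no versions are given there). RMA equalises the arrays, so a difference in total signal is no longer visible. The table holds 41345 probe sets, and array medians lay between 4.72 and 4.84. The design text names a mouse array and the labelling protocol a human one; the probe sets carry mouse genes. The labels call samples independent without naming animals, so the p-values reflect only how far these samples vary, and precision is limited by the number of arrays.

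Gene symbols came from the array annotation and were brought up to date by Entrez identifier through RefSeq's GRCm38.p6 table. Of several single-gene probe sets the brightest was kept. This applied to 3 members (Fen1, Pole, Rrm2), whose other probe sets were dimmer, at 3.67 to 5.57, and differed by -0.14, -0.097 and -0.035. Genes whose mean reached the 30th percentile, 4.13, were tested with limma 3.58.1 in R 4.3.3 (lmFit, eBayes, no covariate, two-sided, Benjamini-Hochberg over all 15526 genes). In simulated data of the same size, 50.7% of the genes given a log2 change of 1 and 84.0% of those given 2 were recovered. The simulated noise had the spread of the limma prior and was independent between genes, with no array set apart. Members varied more, with a median SD over the control arrays of 0.38, against 0.19 over all genes tested. Over the Chd7f/f arrays, which include replicate 1, the median SD was 0.98 for members and 0.20 for all genes. These shares therefore do not apply to the members. Replicate numbers were not used as pairs in the main fit. Deviations of same-numbered samples correlated across genes at 0.027, -0.025 and 0.034. Such low values show no pairing over all genes, but they cannot exclude that same-numbered samples were handled together.

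The members and lists were chosen with earlier results of these data known. All members were named, with the 2 lowest and 2 highest differences of each further replication list, and Kit, Cd34, Mpo and the 2 brightest genes of each marker list. Orc6, Gins4, Rfc1, Rfc3, Rfc5, Tfrc and Cdkn1b were added after their values were seen. Alternatives covered normalization, filter, probe sets, prior, array weights, the replicate block and left-out arrays.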

Additional observations from a re-analysis of the deposited data

How the results depend on the processing

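With another quantile normalization, arrays centred on their median, no filter, the mean of probe sets, a higher filter (50th percentile), a trended and robust prior or the replicate block, 34 members stayed lower and 2 higher, with medians of -0.54 to -0.49. The replicate block gave a median of -0.54 and changed no call; in every setting 0 genes passed in limma (159 to 571 at an unadjusted p under 0.05). Array weights, 0.42 for Chd7f/f replicate 1 and 2.59 for Chd7f/f replicate 3, turned Orc1 to 0.12, Mcm10 to 0.018 and Chaf1b to -0.069. Leaving out 1 array gave 8 to 35 lower members, medians of -0.87 to 0.066 and 0 to 8 members without overlap. The 8 came without control replicate 2 and were all lower. In that setting 18.4% of all genes had no overlap in either direction.

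The sign of 28 members turned without Chd7f/f replicate 1. Over the left-out arrays the differences ran, for the helicase ring, from -0.87 to 0.053 (Mcm2), -0.73 to 0.12 (Mcm3), -1.01 to 0.16 (Mcm5), -0.57 to 0.11 (Mcm6) and -0.86 to 0.046 (Mcm7). For loading and activation they ran from -0.41 to 0.22 (Orc1), -1.16 to 0.17 (Cdc6), -1.04 to 0.063 (Cdt1), -0.74 to 0.18 (Mcm10), -1.05 to 0.074 (Cdc45), -1.52 to 0.00098 (Gins1), -1.0 to 0.011 (Gins2) and -0.43 to 0.023 (Gins3). At the fork they ran from -0.79 to 0.14 (Pola1), -1.04 to 0.11 (Prim1), -1.12 to 0.052 (Pole), -0.31 to 0.070 (Pcna), -0.65 to 0.011 (Fen1) and -1.01 to 0.11 (Lig1). For nucleotide supply they ran from -0.93 to 0.015 (Rrm1), -1.20 to 0.078 (Rrm2), -0.59 to 0.19 (Tyms) and -1.27 to 0.053 (Tk1). For the others they ran from -0.083 to 0.13 (Chaf1b), -1.23 to 0.29 (Uhrf1), -0.54 to 0.16 (E2f2), -0.76 to 0.084 (Clspn) and -1.13 to 0.068 (Chek1).

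Without both arrays numbered 1, 4 members were lower and the median was 0.24. In that setting 11 members had no overlap in either direction, all of them higher, against 28.6% of all genes in either direction. Differences were then 0.24, 0.26, 0.19, 0.31, 0.32 and 0.23 for Mcm2 to Mcm7, 0.39 for Orc1 and Mcm10, 0.42 for Cdc6, 0.26 for Cdt1, 0.25 for Cdc45, and 0.16, 0.16 and 0.15 for Gins1 to Gins3. They were 0.28 for Pola1, 0.35 for Prim1, 0.38 for Pole and Lig1, 0.16 for Pcna, -0.093 for Rfc2, 0.15 for Rrm1, 0.024 for Rrm2, 0.30 for Tyms and Tk1, -0.18 for Chaf1b, 0.11 for Slbp and Usp1, and 0.51 for Uhrf1. E2f1, E2f2 and E2f8 were at 0.31, 0.095 and 0.039, Dtl at 0.12, Clspn at 0.22 and Chek1 at 0.30. The cause of these changes was not tested; fewer arrays remain in each.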
